A study of Mus musculus with 20 samples.

Results

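The genes that make, carry and burn ketone bodies were followed in the kidney cortex of mice with and without functional SGLT2. Members were the 5 genes *Bdh1*, *Bdh2*, *Oxct1*, *Acat1* and *Slc16a1*, found by gene symbol among the 43430 genes counted in each library, and chosen because loss of SGLT2 favours ketosis. All 5 had enough reads to be tested, together with 21 of 25 further genes of the same pathway.

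The mice were male C3H/HeJ, 10 weeks old when a high-fat diet (HFD) with 60% of its calories from fat began. WT mice were compared with homozygous Sweet Pee (SP) mice, whose missense mutation in *Slc5a2* leaves no functional SGLT2, the glucose carrier of the proximal tubule. After 8 weeks of HFD the mice were injected i.p. 3 times a week for 8 weeks with DMSO (placebo) or with MAT2Ai, a chloro-fluorostyryl derivative of N-methylaniline, at 10 mg/kg body weight. MAT2Ai is an inhibitor of the enzyme MAT2A that makes S-adenosylmethionine. This gave WT placebo, WT MAT2Ai, SP placebo and SP MAT2Ai, with 5 libraries each. All 4 groups shared the diet and the injections, and no group on normal diet was analysed here. The SP allele is carried in every cell of the body, so whether a difference between genotypes arose in the kidney or elsewhere cannot be told here. Each library came from a piece of whole cortex, and in such bulk RNA fewer cells of a type and less RNA per cell cannot be told apart. The labels number the libraries as replicates without naming the animal, so the spread between them is taken as the spread between samples.

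Ketone bodies are small fuels that the liver makes from fatty acids when insulin and glucose are low. Acetoacetate and β-hydroxybutyrate travel in blood, enter cells through monocarboxylate carriers, and are turned back into acetyl-CoA in mitochondria of heart, brain, muscle and kidney. The kidney cortex, rich in proximal tubule mitochondria, is known as a consumer of ketone bodies, and treatment with SGLT2 inhibitors is known to raise their level in blood.

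Some facts on the whole set bear on what follows. Libraries held 53296824 to 79339949 gene counts, of which 12.4% to 22.2% were mitochondrial. Markers of proximal tubule were the most abundant of the 13 marker lists in every library (11206 to 19287 CPM, that is gene counts scaled to library size with TMM factors, summed over 10 markers of the S1 and S2 segments), no listed marker was at 0 in all libraries, and thick ascending limb markers summed to 2061 to 4232 CPM. Markers of macrophages and dendritic cells summed to 88.3 to 1781 CPM, the highest in WT MAT2Ai 5. That highest sum was mostly 1 gene, *Cd74*, with 98852 reads, where no other marker of the list passed 3756 reads in any library. In WT MAT2Ai 5 *Bdh1*, *Bdh2*, *Oxct1*, *Acat1* and *Slc16a1* lay inside the range of the other libraries. *Slc5a2* lay at 229 to 518 CPM in WT libraries and at 40.3 to 86.0 CPM in 8 SP libraries. The libraries labelled SP placebo 1 and SP placebo 2 had 241 and 282 CPM, inside the WT range, and fitted differences of named genes that use SP placebo are also given without them. WT MAT2Ai replicate 2 stood apart from all others, at 89.7 on the first principal component (20.5% of the variance) against −22.9 to 21.8, and fitted differences of named genes that use WT MAT2Ai are likewise given without it.

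Promoter sequence is shown for *Bdh1* and *Slc16a1*, the gene with the largest fitted difference between genotypes over both treatments and the gene with the largest fitted treatment difference among the 5. Both stretches run from 250 to 21 bases before the RefSeq start of the gene, on the plus strand of GRCm38.p6 (mm10). The *Bdh1* window is chr16:31422047-31422276 and the *Slc16a1* window is chr3:104638414-104638643. Capitals mark matches to any of 5 short motifs searched on both strands: the PPAR element of DR1 type (AGGTCANAGGTCA), the E-box (CACGTG), the GC box (GGGCGG), the CCAAT box (CCAAT) and the AP-1 site (TGANTCA), none of which overlapped another here.
Bdh1: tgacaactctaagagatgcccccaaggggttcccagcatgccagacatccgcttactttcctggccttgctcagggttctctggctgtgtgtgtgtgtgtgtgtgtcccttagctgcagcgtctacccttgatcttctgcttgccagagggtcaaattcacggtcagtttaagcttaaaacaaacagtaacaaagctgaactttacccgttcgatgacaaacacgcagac
Slc16a1: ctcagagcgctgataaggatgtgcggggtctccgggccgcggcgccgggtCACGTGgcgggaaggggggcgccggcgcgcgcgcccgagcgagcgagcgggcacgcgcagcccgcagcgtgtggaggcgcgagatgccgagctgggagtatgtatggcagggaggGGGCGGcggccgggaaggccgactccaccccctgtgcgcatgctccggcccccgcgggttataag
The *Slc16a1* window was 75.2% G or C with 34 CpG dinucleotides, against 50.0% and 6 for *Bdh1*, and the median of all 32851 mouse promoter windows of that length was 51.7%. It held 1 E-box, starting 200 bases before the gene, and 1 GC box, starting 85 bases before it. Windows with an E-box made up 5.35% of all and windows with a GC box 29.8%. The *Bdh1* window held no match to the 5 motifs, and neither did the window of its other annotated start or that of *Oxct1*. The *Bdh2* window held 1 CCAAT box on the minus strand (CCAAT occurred in 32.2% of windows). The DR1 element occurred in 0.0304% of all windows and the AP-1 site in 6.34%. RefSeq windows matched 4 of the 5 genes.

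Levels were compared between genes only per exon length, as CPM per kb of the exon union. *Oxct1*, the enzyme that hands CoA to acetoacetate and so commits it to be burned, had the highest level of all 30 pathway genes listed, with a median of 360.5 CPM per kb over 20 libraries (246 to 413). *Acat1*, the mitochondrial thiolase that splits acetoacetyl-CoA into acetyl-CoA, followed among the 5 at 245 (130 to 275). *Bdh1*, the mitochondrial dehydrogenase that interconverts β-hydroxybutyrate and acetoacetate, stood at 52.0 (23.1 to 70.5). *Bdh2*, a cytosolic relative of *Bdh1*, stood at 18.1 (10.9 to 20.6) and *Slc16a1*, which encodes the carrier MCT1, at 3.83 (2.45 to 20.9). The ranges of *Oxct1* and *Acat1* overlapped, as did those of *Bdh2* and *Slc16a1*, in both cases through WT MAT2Ai 2 alone, whereas the lowest *Bdh1* library lay above the highest *Bdh2* library.

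Other genes of the pathway were measured beside them. *Bsg*, the chaperone that brings MCT1 to the membrane, stood at 310.3 CPM per kb, and the sodium-coupled carriers *Slc5a8* and *Slc5a12* at 40.4 and 43.1. *Oxct2a* and *Oxct2b*, the testis forms of *Oxct1*, were at most 0.0758 and 0.0470 CPM per kb and were not tested.

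**Figure D1:**
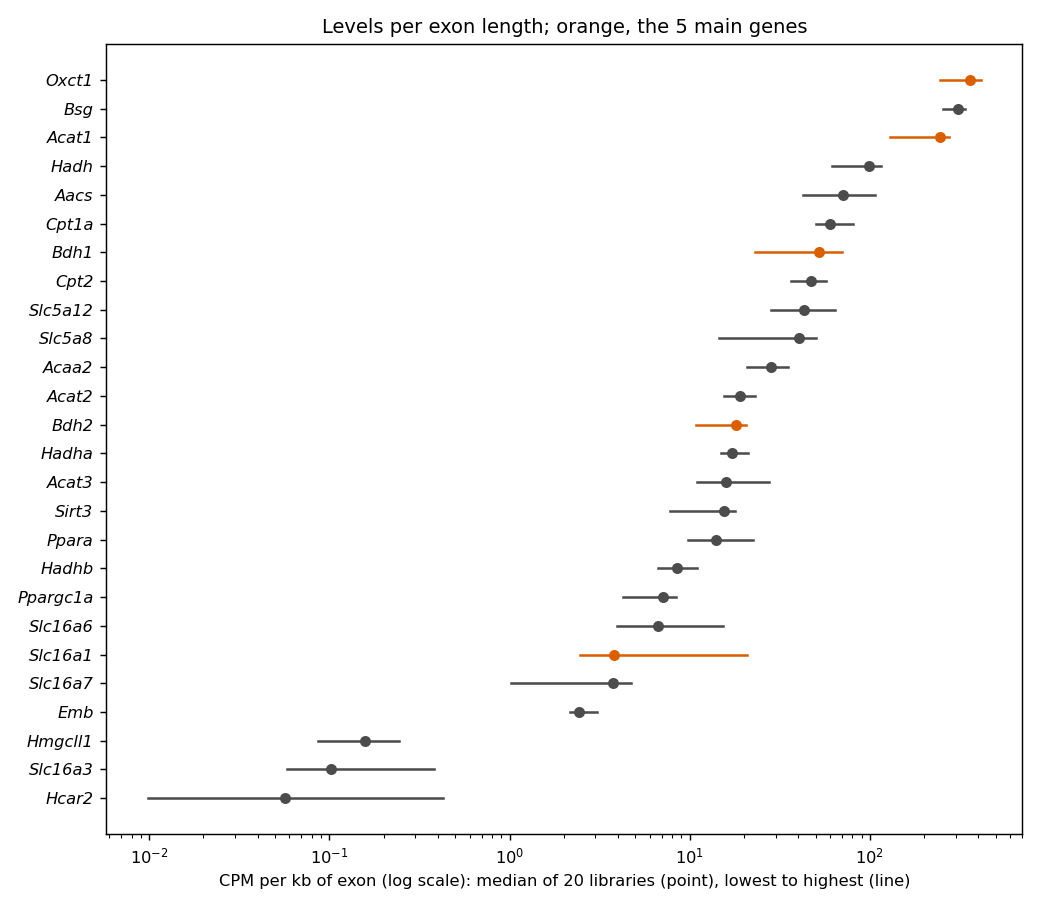
Levels of the 26 tested pathway genes in CPM per kb of exon on a log axis, with the median of 20 libraries as a point and the lowest to highest library as a line; the 5 main genes are orange. *Oxct1* (360.5) leads the list, *Acat1* follows below *Bsg* at 245, and *Slc16a1* lies lowest of the 5 at 3.83.

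*Bdh1* (ENSMUSG00000046598, mm10 chromosome 16, 31422280 to 31458901, plus strand) was measured at 191, 153, 201, 204 and 185 CPM in the 5 WT placebo libraries. In WT MAT2Ai it was at 163, 89.8, 190.2, 248 and 157 CPM. In SP placebo it was at 195, 184, 234, 241 and 274 CPM, and in SP MAT2Ai at 245, 212, 259.99, 227 and 256 CPM. All 5 SP MAT2Ai libraries and 3 SP placebo libraries lay above the highest WT placebo library, and the 2 SP placebo libraries inside the WT placebo range were replicates 1 and 2, the ones whose *Slc5a2* level was also inside the WT range. WT MAT2Ai spread most, from the lowest of the 20 libraries (replicate 2) to a value among the highest (replicate 4), so no 2 groups of 5 were apart except SP MAT2Ai and WT placebo. That pair differs in both genotype and treatment, and SP MAT2Ai was wholly higher there for 2.11% of all tested genes.

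Group means of *Bdh1* were 187 ± 20.1 CPM in WT placebo, 169.6 ± 57.4 in WT MAT2Ai, 226 ± 36.6 in SP placebo and 239.9 ± 20.1 in SP MAT2Ai (SD, n = 5 each). The fitted log2 difference of SP from WT over both treatments was 0.39 ± 0.12 (SE), a fold of 1.31, with an unadjusted p of 0.00533 and an adjusted p of 0.102 by the edgeR quasi-likelihood test over 16152 genes, so *Bdh1* did not pass the threshold of 0.05. It ranked 843 of those genes by p. Under MAT2Ai the difference of SP from WT was 0.50 ± 0.18 (adjusted p 0.108), or 0.34 without WT MAT2Ai 2, and under placebo it was 0.27 ± 0.18 (adjusted p 1). Without the libraries labelled SP placebo 1 and 2 the placebo difference was 0.41 ± 0.20 (adjusted p 0.979). MAT2Ai against placebo gave −0.14 ± 0.17 in WT and 0.09 ± 0.17 in SP, both within their SE, and their signs turned to 0.02 without WT MAT2Ai 2 and to −0.05 without SP placebo 1 and 2.

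The call on *Bdh1* over both treatments rested on the tool and on single libraries. DESeq2 gave an adjusted p of 0.0438 and limma-voom with sample weights 0.0188. Without WT MAT2Ai replicate 4, the WT library with the highest *Bdh1* level, it was 0.0293 with a log2 difference of 0.48. Without WT MAT2Ai 2 it was 0.0663 with a log2 difference of 0.31, without SP placebo 1 and 2 it was 0.0842 with 0.46, and without all 3 of these libraries it was 0.0303 with 0.38. All settings kept the direction, between 0.31 and 0.48. Reads of the antisense gene *Gm15743*, which overlaps *Bdh1*, were few (46 to 168 per library against 5785 to 19695 for *Bdh1*).

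*Bdh2* (ENSMUSG00000028167, chromosome 3, 135281221 to 135304426, plus strand) encodes a short-chain dehydrogenase for which a cytosolic role in β-hydroxybutyrate oxidation has been proposed. It was measured at 85.3, 73.2, 80.9, 76.5 and 63.4 CPM in WT placebo and at 73.9, 46.2, 73.5, 87.4 and 72.8 CPM in WT MAT2Ai. In SP placebo it was at 77.4, 74.0, 82.2, 84.4 and 83.7 CPM and in SP MAT2Ai at 75.4, 79.6, 76.4, 87.4 and 82.6 CPM. The 4 groups overlapped, and WT MAT2Ai 2 was the lowest library.

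The largest fitted log2 difference of *Bdh2* between groups was 0.18 ± 0.11 for SP MAT2Ai against WT MAT2Ai (adjusted p 0.359), and it was 0.06 without WT MAT2Ai 2. Between SP MAT2Ai and SP placebo the 95% interval of the log2 difference ran from −0.24 to 0.24 around −0.0009, and the difference was −0.05 without SP placebo 1 and 2.

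*Oxct1* (ENSMUSG00000022186, chromosome 15, 4026383 to 4155344, plus strand) varied least among the 5 over all 20 libraries. It was measured at 1346, 1291, 1393, 1349.5 and 1316 CPM in WT placebo and at 1237, 912, 1324, 1333 and 1241 CPM in WT MAT2Ai. In SP placebo it was at 1227, 1376, 1359, 1335 and 1530.1 CPM and in SP MAT2Ai at 1413, 1309, 1349.9, 1266.5 and 1346.5 CPM. Apart from WT MAT2Ai 2, all libraries lay between 1227 and 1530.1 CPM, and the groups overlapped.

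The SD of *Oxct1* was 38.4 CPM around 1339 in WT placebo and 54.3 around 1337 in SP MAT2Ai. Fitted log2 differences ranged from −0.15 ± 0.08 (WT MAT2Ai against WT placebo, adjusted p 0.394) to 0.14 ± 0.08 (SP MAT2Ai against WT MAT2Ai, adjusted p 0.321), and were −0.07 and 0.06 without WT MAT2Ai 2. The interval for SP placebo against WT placebo was −0.15 to 0.20 around 0.03, and the difference was 0.07 without SP placebo 1 and 2. Overlapping genes on the other strand, *Gm15632* and *BC037032*, held at most 0 and 119 reads.

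*Acat1* (ENSMUSG00000032047, chromosome 9, 53580522 to 53610382, minus strand), which also serves isoleucine breakdown, was measured at 917, 827, 956, 878 and 863 CPM in WT placebo. In WT MAT2Ai it was at 709, 489.8, 828, 1014 and 781 CPM. In SP placebo it was at 933, 924, 999, 967 and 961 CPM and in SP MAT2Ai at 1032, 846, 951, 907 and 996 CPM. The order of libraries within WT MAT2Ai resembled that of *Bdh1*, with replicate 2 lowest and replicate 4 highest, and 5 of 10 SP libraries lay above the highest WT placebo library.

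Group means of *Acat1* were 888 ± 49.7, 764 ± 190.4, 957 ± 30.1 and 946 ± 73.2 CPM (SD, n = 5) in WT placebo, WT MAT2Ai, SP placebo and SP MAT2Ai. Its log2 difference of SP from WT over both treatments was 0.21 ± 0.09 (adjusted p 0.188), or 0.14 without WT MAT2Ai 2 and 0.22 without SP placebo 1 and 2. It was 0.31 ± 0.12 under MAT2Ai (adjusted p 0.148), the latter 0.18 without WT MAT2Ai 2 and 0.43 without WT MAT2Ai 4, where its adjusted p was 0.0343. Under placebo it was 0.11, and between 0.079 and 0.13 over the alternatives, with 0 calls. Limma-voom gave an adjusted p of 0.0362 over both treatments and DESeq2 0.149. Treatment with MAT2Ai gave −0.22 ± 0.12 in WT (adjusted p 0.385), −0.10 without replicate 2, and −0.02 ± 0.12 in SP, −0.04 without SP placebo 1 and 2.

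*Slc16a1* (ENSMUSG00000032902, chromosome 3, 104638668 to 104658462, plus strand) was measured at 11.9, 23.7, 15.6, 10.8 and 15.9 CPM in WT placebo. In WT MAT2Ai it was at 17.7, 92.4, 16.0, 16.9 and 18.9 CPM. In SP placebo it was at 13.1, 17.9, 17.0, 17.9 and 15.6 CPM and in SP MAT2Ai at 11.8, 26.8, 20.3, 16.9 and 19.1 CPM. WT MAT2Ai 2 alone was high, and the other 19 libraries lay between 10.8 and 26.8 CPM with all groups overlapping.

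The fitted log2 difference of *Slc16a1* for MAT2Ai in WT was 1.05 ± 0.40, a fold of 2.08, with an unadjusted p of 0.0161 and an adjusted p of 0.231, and without WT MAT2Ai 2 it was 0.15 ± 0.20. That 1 library likewise set the difference of SP MAT2Ai from WT MAT2Ai, −0.77 ± 0.40 with it and 0.13 ± 0.20 without it, and the fit over both genotypes, 0.64 ± 0.28 with it and 0.19 ± 0.14 without it. In SP, MAT2Ai gave 0.22 ± 0.40, and 0.18 without SP placebo 1 and 2. Leaving out those 2 gave 0.62 over both genotypes, −0.33 for SP over both treatments and −0.87 for the interaction. SP against WT over both treatments gave −0.35 ± 0.28, and 0.09 ± 0.14 without WT MAT2Ai 2. The interaction of genotype and treatment was −0.83 ± 0.56 (adjusted p 0.851) and 0.07 without WT MAT2Ai 2. These levels rest on 626 to 5947 reads per library.

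**Figure D2:**
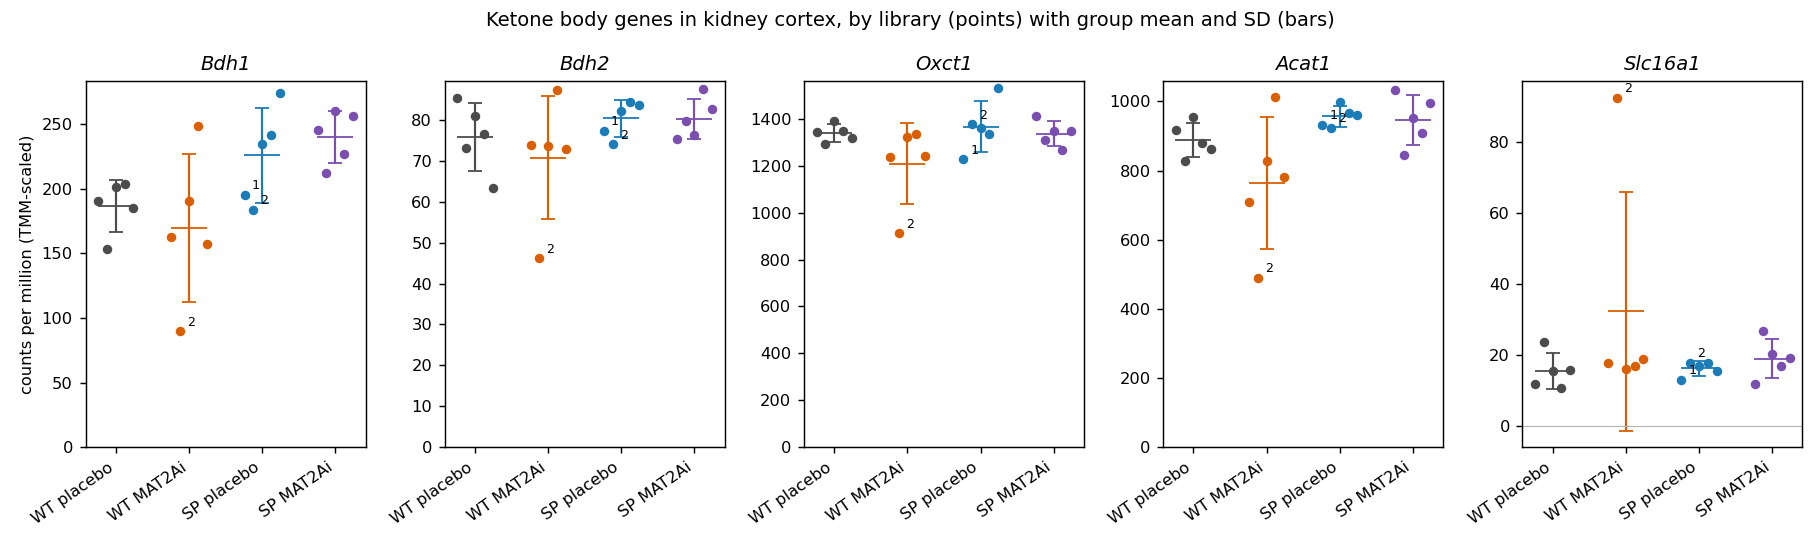
CPM of each of the 5 genes on a linear axis from 0, with 1 point per library in replicate order, the group mean as a long bar and the SD as an error bar; WT MAT2Ai 2 and the libraries labelled SP placebo 1 and 2 carry their number. WT MAT2Ai 2 is lowest for *Bdh1* (89.8), *Bdh2* (46.2), *Oxct1* (912) and *Acat1* (489.8) and highest for *Slc16a1* (92.4).

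The counts over the 5 genes were read against those over all genes. None passed an adjusted p of 0.05 by the edgeR quasi-likelihood test in any of 7 comparisons. The first 4 comparisons are of pairs of groups and share groups with each other, so they are not independent. Comparing SP placebo with WT placebo, which asks what the mutation does on HFD, 0 of 5 had an unadjusted p under 0.05, where 3.75% of all tested genes did, and 0% of all tested genes passed the adjusted threshold. DESeq2 and limma-voom called none of the 5 there, beside 7 and 4 of all 16152 genes. All 5 fitted differences were above 0, with a median log2 of 0.08 beside 0 over all genes. They are not 5 separate results, since levels of *Bdh1*, *Bdh2*, *Oxct1* and *Acat1* varied together. Those of *Oxct1* (0.03) and *Slc16a1* (0.06) reached −0.018 and −0.043 when a single library was left out.

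Comparing SP MAT2Ai with WT MAT2Ai, 2 of 5 (*Bdh1* and *Acat1*) had an unadjusted p under 0.05 beside 21.8% of all genes, and 0 passed the adjusted threshold beside 1.84%. DESeq2 called 0 of the 5 beside 1203 of all 16152 genes, and limma-voom 0 beside 397. Leaving out WT MAT2Ai 4 called both, beside 774 of 16325 genes. The median log2 difference of the 5 was 0.18, beside −0.02 over all genes.

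Comparing WT MAT2Ai with WT placebo, 1 of 5 (*Slc16a1*) had an unadjusted p under 0.05 beside 15.7% of all genes, and 0 passed the adjusted threshold, as for 0% of all genes. The median of the 5 was −0.14, beside 0.01 over all genes. Comparing SP MAT2Ai with SP placebo, which asks whether the inhibitor acts where SGLT2 is missing, 0 of 5 had an unadjusted p under 0.05 beside 5.92% of all genes, and 0 passed the adjusted threshold beside 0.0186%. The 5 log2 differences lay between −0.03 and 0.22. DESeq2 and limma-voom called 0 of the 5 in both comparisons, beside 201 and 2 of all 16152 genes in WT and 27 and 17 in SP.

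Averaged over genotypes, MAT2Ai gave 1 of 5 (*Slc16a1*) at an unadjusted p under 0.05 beside 14.7% of all genes, and 0 at the adjusted threshold beside 0.223%. Averaged over treatments, SP gave 2 of 5 (*Bdh1* and *Acat1*) beside 19.6%, and 0 beside 1.33%. There DESeq2 called 1 (*Bdh1*) beside 885 of all 16152 genes, and limma-voom 2 (*Bdh1* and *Acat1*) beside 1341. The interaction gave 0 of 5 beside 5.59% unadjusted, and 0 beside 0% adjusted. DESeq2 and limma-voom called 0 of the 5 for it, beside 1 and 0 of all genes.

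**Figure D3:**
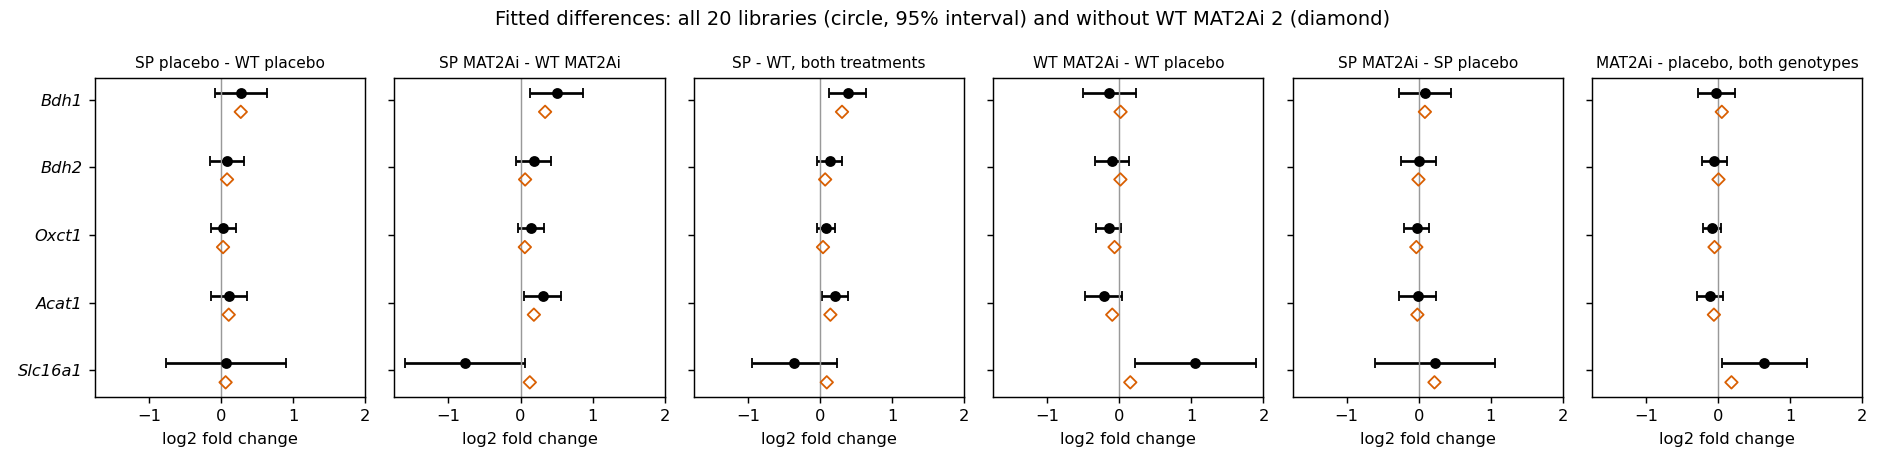
Fitted log2 fold changes of the 5 genes in 6 comparisons, as circles with 95% intervals from all 20 libraries and as open diamonds without WT MAT2Ai 2. The intervals of *Bdh1* and *Acat1* lie above 0 in SP MAT2Ai against WT MAT2Ai, and *Slc16a1* moves from 1.05 to 0.15 in WT MAT2Ai against WT placebo.

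By the edgeR test with all 20 libraries the other 21 tested pathway genes gave no adjusted call in any comparison either. In SP MAT2Ai against WT MAT2Ai, DESeq2 called *Aacs*, *Hadh* and *Cpt1a* higher and limma-voom *Slc16a6* and *Hadh*. Of all 16152 tested genes DESeq2 called 1203 there and limma-voom 397. For SP over both treatments limma-voom called *Slc16a6*, *Slc5a8*, *Hadh* and *Cpt1a* higher and *Acaa2* lower, and DESeq2 none of the 21. Over all tested genes limma-voom called 1341 there and DESeq2 885. Neither tool called any of the 21 in the other 5 comparisons. Of the 21, 6 had an unadjusted p under 0.05 in SP MAT2Ai against WT MAT2Ai (beside 21.8% of all tested genes) and 6 in SP over both treatments (19.6%). There were 4 in MAT2Ai over both genotypes (14.7%), 3 in SP MAT2Ai against SP placebo (5.92%) and 2 in WT MAT2Ai against WT placebo (15.7%). SP placebo against WT placebo gave 1 (3.75%) and the interaction 2 (5.59%). Among the 6 genes that supply acyl-CoA, *Hadh*, the short-chain hydroxyacyl-CoA dehydrogenase, was at 439, 308, 436, 467 and 463 CPM in WT MAT2Ai and at 512, 504, 547, 493 and 571 CPM in SP MAT2Ai. These groups did not overlap, a pattern in which SP MAT2Ai was wholly higher for 1.71% of tested genes, and the log2 difference was 0.31 ± 0.09 (adjusted p 0.0586, and 0.22 without WT MAT2Ai 2). *Cpt1a*, the gate for long-chain fatty acids into mitochondria, differed by 0.27 ± 0.08 there (adjusted p 0.0738, and 0.30 without WT MAT2Ai 2). In SP MAT2Ai against SP placebo all 6 of these genes had differences above 0, with a median log2 of 0.13, and 2 had an unadjusted p under 0.05, *Cpt2* at 0.25 ± 0.10 and *Cpt1a* at 0.18 ± 0.08 (adjusted p 0.833 and 0.834). Without SP placebo 1 and 2 all 6 were still above 0, with a median of 0.16, and 0 had an unadjusted p under 0.05, *Cpt2* being at 0.18 and *Cpt1a* at 0.20.

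Among genes of use and activation, *Aacs*, the cytosolic enzyme that activates acetoacetate for lipid synthesis, was at 339, 369, 374, 409.9 and 288 CPM in SP MAT2Ai. It was at 249.5, 185, 326, 163 and 242 CPM in WT MAT2Ai, and only the lowest SP MAT2Ai library lay below the highest WT MAT2Ai library. The log2 difference was 0.61 ± 0.18 (adjusted p 0.063), and 0.54 without WT MAT2Ai 2. The interaction was 0.63 ± 0.25 (adjusted p 0.842), 0.56 without WT MAT2Ai 2, 0.45 without SP placebo 1 and 2, and 0.38 without all 3. In SP the difference of MAT2Ai from placebo was 0.43 ± 0.18 (adjusted p 0.833), and it was 0.24 ± 0.19 without SP placebo 1 and 2.

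*Acaa2*, the mitochondrial thiolase that ends each round of fatty acid oxidation, was at 51.0, 53.3, 49.0, 48.2 and 43.8 CPM in WT placebo and at 37.4, 45.7, 37.7, 31.6 and 40.8 CPM in SP placebo. The groups overlapped through SP placebo 2 and WT placebo 5 alone. The log2 difference was −0.35 ± 0.12 (unadjusted p 0.00743, adjusted p 1), and −0.43 without SP placebo 1 and 2. Among carriers, *Slc5a8* gave a log2 difference of −0.42 ± 0.17 in WT MAT2Ai against WT placebo (adjusted p 0.241, and −0.25 without WT MAT2Ai 2). *Slc16a6*, a relative of *Slc16a1*, gave 0.43 ± 0.19 for MAT2Ai over both genotypes (unadjusted p 0.0379, adjusted p 0.314), 0.20 without WT MAT2Ai 2, 0.32 without SP placebo 1 and 2, and 0.10 without all 3. For SP over both treatments it was called higher without WT MAT2Ai 2, beside 369 of 16296 genes called. In SP MAT2Ai against WT MAT2Ai it was also called higher without that library, beside 234 of 16296. Its levels were 44.0, 62.7, 45.6, 39.8 and 46.3 CPM in SP MAT2Ai and 24.3, 74.8, 28.1, 19.4 and 32.4 CPM in WT MAT2Ai.

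**Figure D4:**
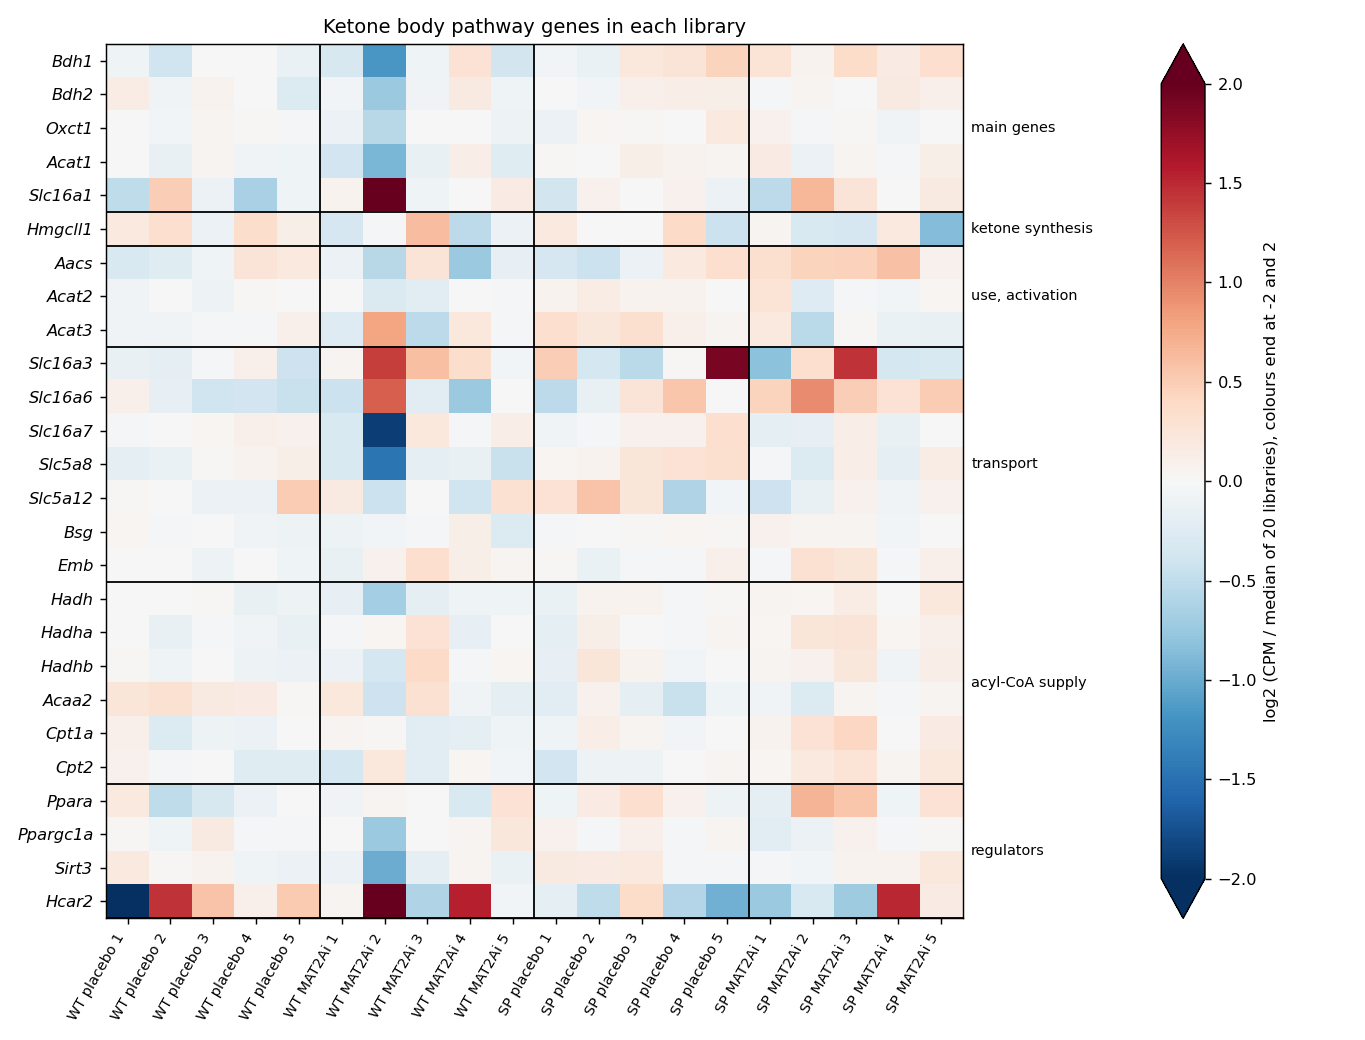
Heat map of the 26 tested pathway genes (rows, grouped by role) in the 20 libraries (columns, grouped by genotype and treatment), coloured by log2 of CPM over the median of 20 libraries with colours ending at −2 and 2. The column of WT MAT2Ai 2 stands out, with *Slc16a1* and *Slc16a6* high and *Slc16a7*, *Slc5a8* and *Bdh1* low.

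The library WT MAT2Ai 2 gave the widest departures in the pathway. Its *Bdh1* level was 44.1% of the median of the other 19 libraries, *Acat1* 53.0%, *Bdh2* 59.7% and *Oxct1* 68.3%, and each was the lowest of 20. *Slc16a1* was 5.47 times that median and the highest of 20. In that library 21.2% of all tested genes were the lowest of 20 and 22.6% were the highest, so such a position was common there. *Slc16a6* was at 74.8 CPM against at most 62.7 elsewhere, and *Fgf21*, a hormone tied to fasting and ketosis in liver, held 564 reads against at most 27. *Slc5a8* was at 35.5% of the median of the others, and *Slc16a7*, the carrier MCT2, at 12.1 CPM against at least 35.7. *Bsg* was inside the range of the others at 545 CPM.

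Markers of other states moved with these values in the same library. All 10 tubular injury markers were highest there (summed level 8061 CPM against 445 to 956), among them *Havcr1*, the gene of the injury protein KIM-1, at 1214 CPM. Proximal tubule markers of S1 and S2 summed to 11206 CPM against 15581 to 19287, and those of S3, the last straight segment, to 2863 against 4149 to 7066. The part of injury and of segment makeup in the levels of the 5 genes was not tested.

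Over all 20 libraries the levels of *Bdh1*, *Bdh2*, *Oxct1* and *Acat1* varied together, given here as a description, with Pearson r of log2 CPM between 0.786 and 0.915 for their 6 pairs, and with *Slc16a1* r lay between −0.802 and −0.678. Without WT MAT2Ai 2 the first range was 0.247 to 0.801, and the second was −0.282 to −0.056, so the inverse relation to *Slc16a1* rested on that library. The pair *Bdh1* and *Acat1* kept r = 0.801 over 19 libraries. The S3 marker sum had r = 0.882 with *Bdh1* and 0.898 with *Acat1* over 20 libraries, and 0.766 and 0.811 over 19, and the points share library depth and tissue makeup. Over 19 libraries r with the S3 sum was 0.658 for *Oxct1*, 0.234 for *Bdh2* and −0.37 for *Slc16a1*. With the S1 and S2 sum it was 0.645 for *Bdh1* and 0.741 for *Acat1* over 20 libraries, and 0.048 and 0.139 over 19.

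The S3 sum was also higher on average in the SP groups than in the WT groups. It ranged over 4181 to 6147 CPM in WT placebo (mean 5387), 2863 to 5820 in WT MAT2Ai (mean 4365), 5896 to 6858 in SP placebo (mean 6374) and 5049 to 7066 in SP MAT2Ai (mean 5822). For SP over both treatments 6 of its 8 markers had differences above 0, with a median log2 of 0.26, and none passed the adjusted threshold. Without WT MAT2Ai 2 the median was 0.20 and 1 marker, *Slco1a1*, was called higher. Of the 10 S1 and S2 markers 9 were above 0 for SP over both treatments, with a median of 0.08, and *Slc22a6* was called higher. Without WT MAT2Ai 2, 7 of the 10 were above 0, with a median of 0.04, and *Slc22a6* was still called. Over all tested genes 215 of 16152 were called for SP over both treatments, and 369 of 16296 without WT MAT2Ai 2.

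Markers of other cell types moved with genotype as well. For SP over both treatments 0 of 8 macrophage and dendritic cell markers had differences above 0, with a median log2 of −0.66, and *C1qb* and *C1qc*, subunits of complement C1q, were called lower with and without WT MAT2Ai 2. The summed level of the 8 markers ran over 177 to 225 CPM in WT placebo and 190.6 to 1781 in WT MAT2Ai, the 1781 being mostly *Cd74*. It ran over 134 to 239 in SP placebo and 88.3 to 193 in SP MAT2Ai. Of 8 endothelial markers 0 were above 0, with a median of −0.38 and no call, and without WT MAT2Ai 2 *Pecam1*, *Emcn* and *Plvap* were called lower. Without SP placebo 1 and 2 none of the 8 was called. Without WT MAT2Ai 2 and SP placebo 1 and 2 *Pecam1*, *Emcn*, *Plvap* and *Egfl7* were called lower. Endothelial sums ran over 146 to 288 CPM in WT placebo, 106 to 262 in WT MAT2Ai, 125 to 208 in SP placebo and 104 to 146.5 in SP MAT2Ai. Of 10 tubular injury markers 0 were above 0, with a median of −1.41 that was −0.51 without WT MAT2Ai 2, and none was called. Of the 3 tested adipocyte markers all were below 0 and *Cfd*, the gene of adipsin, was called lower. Without WT MAT2Ai 2 *Adipoq* and *Cfd* were called lower of 4 tested. Without SP placebo 1 and 2 none of 5 tested was called, and without all 3 libraries *Cfd* was. Over all tested genes 215 of 16152 were called for SP over both treatments, and 369 of 16296 without WT MAT2Ai 2. There were 189 of 16551 without SP placebo 1 and 2, and 463 of 16458 without all 3 libraries. The part of these cell types, of injury and of the proximal tubule segments in the *Bdh1* and *Acat1* differences was not tested.

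**Figure D5:**
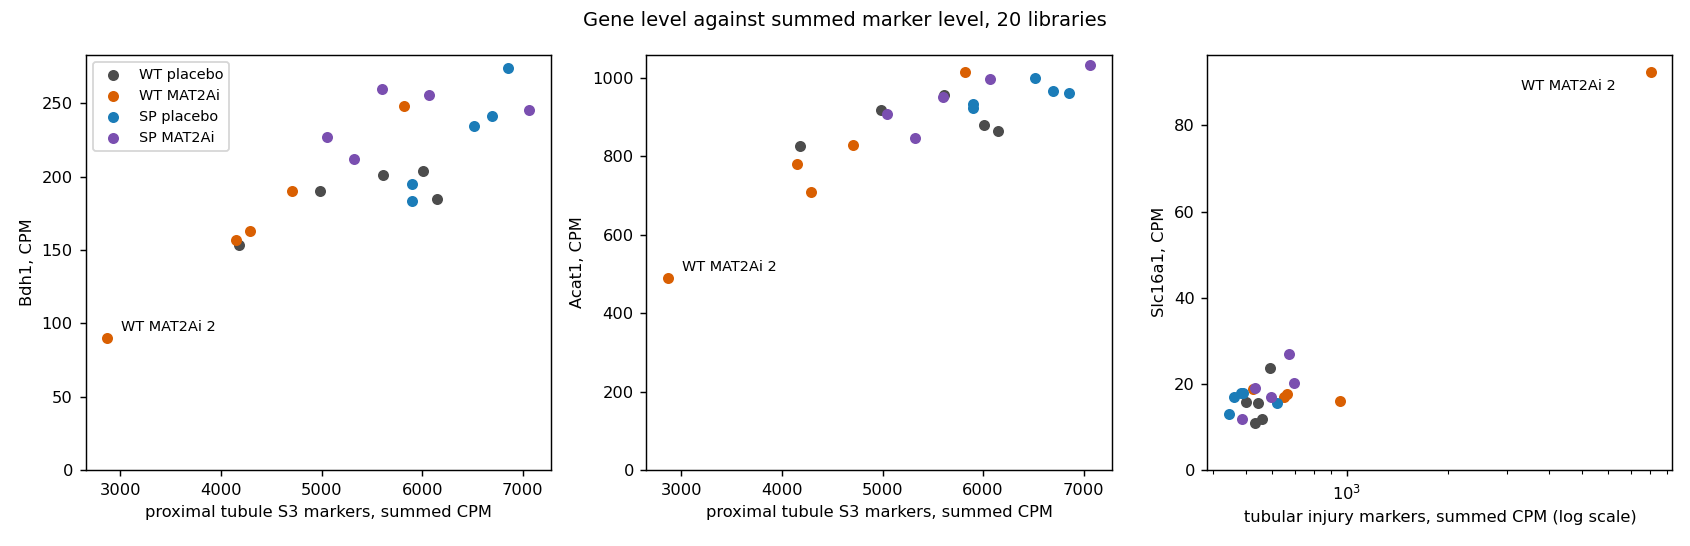
*Bdh1* and *Acat1* in CPM against the summed CPM of 8 S3 markers, and *Slc16a1* in CPM against the summed CPM of 10 tubular injury markers on a log axis, with 1 point per library coloured by group. *Bdh1* and *Acat1* are higher where the S3 sum is higher (r = 0.882 and 0.898 on the log2 scale), and WT MAT2Ai 2 alone carries both high injury markers and high *Slc16a1*.

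Genes among the 3 with the pattern most like each of the 5 were listed by Pearson r of log2 CPM over the 20 libraries. For *Bdh1* these included *Eci3* (r = 0.944, and 0.875 without WT MAT2Ai 2) and *Akr1c14* (0.938 and 0.856). *Acat1* was closest to *Coasy*, the last enzyme of coenzyme A synthesis (0.957 and 0.888), and *Acsm1* was also among its 3. *Bdh2* was closest to *Abhd14b* (0.933 and 0.761), then *Bhmt2* and *Ttc36*. *Oxct1* was closest to *C1qtnf3* (0.936 and 0.741), then *Bckdhb*, a subunit of the branched-chain ketoacid dehydrogenase, and *Slc16a4*. *Slc16a1* was closest to *Lgals3*, which encodes galectin 3 (0.949 and 0.777), then *Lgmn* and *Slc3a2*.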

How the data were processed

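The authors isolated poly(A) RNA from kidney cortex, made directional libraries, aligned reads to mm10 with STAR, counted them per gene with htseq-count on Ensembl release 78 and deposited these unscaled whole-number counts. The strand setting of counting is not given in the sources used here. Samples were grouped by the genotype and treatment in the labels. Symbols came from a reference list of gene names (42462 of 43430 IDs had one), and positions and exon lengths from GENCODE M21. Library sizes exclude the 5 summary lines that end each file (reads outside genes 3.87% to 5.49%, ambiguous 0.702% to 0.794%).

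Counts were filtered with filterByExpr (16152 genes), scaled by TMM and fitted with edgeR 4.0.16 (glmQLFit, glmQLFTest; R 4.3.3) using all 20 libraries, a coefficient for each group and no covariate. Benjamini-Hochberg adjustment ran over the whole tested table, with a threshold of 0.05. The SE is the log2 fold change over the square root of F. DESeq2 1.42.0, limma-voom (limma 3.58.1), other scalings, no filter, no mitochondrial genes, only the groups compared, a replicate block and left-out libraries were the alternatives. The fit without WT MAT2Ai 2 and SP placebo 1 and 2 together was chosen after seeing the data. Scripts were tested on simulated counts. Log2 CPM for components and correlations used a prior count of 2.

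Named were all 5 members, of the other pathway genes every one past the threshold and up to 4 with the smallest p per comparison, and the 3 genes most alike per member. Genes shown beside these (such as *Fgf21*, *Slc16a7*, *Oxct2a*, *Bsg* and *Slc5a12*) were chosen after their values were seen. Results of some further genes are not reported here. The members and lists were chosen with earlier results of these data known.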

Additional observations from a re-analysis of the deposited data

Results flagged for a closer look

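In each group of 5 libraries the lowest and the highest value were compared with the nearest of the others, for the 5 genes (20 groups) and for the 13 other pathway genes named by rule (52 groups). A gap this wide against the range arises by chance in about 1 of 20 groups. Of the 5 genes, *Oxct1* at 912 CPM and *Slc16a1* at 92.4 CPM, both in WT MAT2Ai 2, lay far from the rest of WT MAT2Ai. In the same library *Hadh* at 308 CPM and *Sirt3*, a mitochondrial deacetylase, at 46.6 CPM were far below, and *Slc16a6* at 74.8 CPM far above, the other 4. *Slc16a3*, the lactate carrier MCT4, was far above the others in SP placebo 5, at 2.03 CPM, as were *Slc16a6* in SP MAT2Ai 2 at 62.7 CPM and *Acat3* in WT placebo 5 at 41.6 CPM, each within its own group.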

How the results depend on the processing

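Over 31 alternatives, 1022 of 1070 values of the 5 genes kept their direction without passing the threshold, 11 kept it and passed, and 37 changed sign, none of them past the threshold. In SP MAT2Ai against WT MAT2Ai the number of the 5 called was 0 by edgeR with all 20 libraries and 2 without WT MAT2Ai 2, 3 and 4 (which an earlier analysis found apart). It was 0 to 2 when single libraries were left out, 2 being reached without WT MAT2Ai 4. Over all tested genes these 3 fits called 298, 149 and, without WT MAT2Ai 4, 774. For SP over both treatments the number of the 5 called was 0 by edgeR with all 20 libraries, 1 with DESeq2 and 2 with limma-voom. It was 2 without WT MAT2Ai 2, 3 and 4, 1 without WT MAT2Ai 2 and SP placebo 1 and 2, and 0 to 1 over single left-out libraries. The genes called over all tested were 215 by edgeR with all 20 libraries there, 885 with DESeq2 and 1341 with limma-voom. They were 461 without WT MAT2Ai 2, 3 and 4, and 463 without WT MAT2Ai 2 and SP placebo 1 and 2. Without WT MAT2Ai 4, where the 1 was reached, they were 574. The cause was not tested.

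Signs changed as follows, in log2 units. Without SP placebo 1 and 2, *Bdh1* in SP MAT2Ai against SP placebo was −0.052, and the same without WT MAT2Ai 2 as well. With those 3 libraries left out, WT MAT2Ai against WT placebo was 0.021 for *Bdh1* and 0.019 for *Bdh2*, the interaction was −0.072 for *Bdh1*, −0.067 for *Bdh2*, −0.0056 for *Oxct1* and 0.024 for *Slc16a1*, and *Slc16a1* was 0.13 in SP MAT2Ai against WT MAT2Ai and 0.12 for SP over both treatments. The last 2 were 0.034 and 0.12 with limma-voom, and 0.052 and 0.057 without WT MAT2Ai 2, 3 and 4. *Bdh2* in SP MAT2Ai against SP placebo was 0.0007 with limma-voom. Of 856 values of the other named pathway genes, 840 kept direction and side of the threshold, 15 passed it and 1 changed sign. The 15 were *Hadh* (DESeq2, limma-voom, without WT MAT2Ai 4 or 5), *Cpt1a* (DESeq2, without WT MAT2Ai 1 or SP MAT2Ai 4) and *Aacs* (DESeq2, without WT MAT2Ai 3) in SP MAT2Ai against WT MAT2Ai, and for SP over both treatments *Slc5a8* (limma-voom, without WT MAT2Ai 2, 3 and 4, without WT MAT2Ai 2 and SP placebo 1 and 2), *Hadh*, *Acaa2* and *Cpt1a* (limma-voom). *Emb* in WT MAT2Ai against WT placebo was 0.14 by edgeR with all 20 libraries and −0.011 without WT MAT2Ai 2, 3 and 4. The 856 values took each gene only in comparisons where it was among the 4 with the smallest p. *Slc16a6* was taken only for MAT2Ai over both genotypes. In SP MAT2Ai against WT MAT2Ai limma-voom called it higher (397 genes called). There it was also called without WT MAT2Ai 2 (234), and without WT MAT2Ai 2 and SP placebo 1 and 2 (151). For SP over both treatments these fits called it higher (1341, 369 and 463). So did the fit without WT MAT2Ai 2, 3 and 4 (461).

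Over single left-out libraries, SP MAT2Ai against SP placebo ranged from −0.0455 to 0.0205 for *Acat1*, −0.033 to 0.024 for *Bdh2* and −0.0705 to 0.011 for *Oxct1*. WT MAT2Ai against WT placebo ranged from −0.32 to 0.017 for *Bdh1* and −0.19 to 0.015 for *Bdh2*. SP placebo against WT placebo ranged from −0.018 to 0.059 for *Oxct1* and −0.043 to 0.26 for *Slc16a1*. *Slc16a1* ranged from −0.93 to 0.13 in SP MAT2Ai against WT MAT2Ai, from −1.02 to 0.067 in the interaction and from −0.43 to 0.095 for SP over both treatments, and *Bdh2* from −0.018 to 0.19 in the interaction. MAT2Ai over both genotypes ranged from −0.11 to 0.052 for *Bdh1* and −0.094 to 0.0059 for *Bdh2*.

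Same-numbered libraries of different groups showed little shared deviation on average (mean correlation −0.0158 over 30 pairs, 4 of them over 0.1). The largest was 0.265, for WT MAT2Ai 2 and SP MAT2Ai 2. Weak correlation cannot exclude pairing, and the labels do not say whether the numbers pair samples. With a replicate block 0 of the 5 genes were called in every comparison, and *Bdh2* in SP MAT2Ai against SP placebo turned to 0.0013. A fit of only the groups compared was not run for the interaction and the averaged comparisons, which use all groups.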
